A study of Mus musculus with 6 samples.

Results

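The intercellular adhesion molecules Icam1, Icam2, Icam4 and Icam5, the vascular adhesion molecule Vcam1, and the integrin subunits Itgal, Itgam and Itgb2 were followed in cells of the mouse olfactory epithelium that had been sorted by their surface ICAM1. These 8 genes were taken by symbol, and the array carried 11 probe sets for them out of 45101 in all. They were chosen as the relatives of the sort antigen and the leukocyte receptors that bind it. Cells of both groups came from CD1 mice, an outbred strain, and the labels name no mutation, transgene or treatment in either. The ICAM1-positive group held 3 arrays and the ICAM1-negative group 3 arrays, 1 of each from each of 3 litters aged 21, 22 and 24 days after birth, so age and litter cannot be told apart. Each litter's epithelium was dissociated and divided with a fluorescent antibody to ICAM1, and RNA was amplified in 2 rounds before hybridisation to an Affymetrix mouse genome array.

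ICAM1 is a membrane protein of the immunoglobulin family that leukocytes grip with beta-2 integrins when they stop on and cross a vessel wall or an epithelium. A beta-2 integrin is a pair of chains: the shared beta chain CD18, made by Itgb2, joins an alpha chain such as CD11a from Itgal, CD11b from Itgam or CD11c from Itgax, and only the pair reaches the cell surface. VCAM1 does the same work for a different receptor, the pair of integrin alpha 4 with beta 1. Icam1 and Vcam1 transcription is known to be induced by tumour necrosis factor and interleukin 1 through NF-kB. In the olfactory epithelium ICAM1 marks horizontal basal cells, the reserve stem cells that lie on the basement membrane, and it is found on endothelium and immune cells as well.

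Values are the deposited linear intensities. The median probe set stood between 87.9 and 102.8 on the 6 arrays. No detection call is recorded for any value, so the array median marks dim values here and is not a detection limit. A mean intensity carries its SD over 3 arrays and a log2 difference its standard error from limma. Every difference is ICAM1-positive minus ICAM1-negative. The threshold was an adjusted p of 0.05 over 38694 probe sets. The correlation of log2 intensities across probe sets was 0.934 to 0.944 between ICAM1-positive arrays, 0.937 to 0.944 between ICAM1-negative arrays and 0.762 to 0.794 between the sorts. Of 9 horizontal basal cell markers 9 were higher in ICAM1-positive cells (median log2 difference 7.80) and of 8 mature olfactory neuron markers 8 were lower (median -3.50).

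Icam1, the gene of the antigen, was at 7246.5, 6817.2 and 6857.1 in ICAM1-positive cells of litters 1, 2 and 3, against 13, 16.1 and 33.2 in ICAM1-negative cells. The groups did not overlap, and ICAM1-negative values lay under the array median on all 3 arrays, so the difference was at least 72.2-fold. It follows the sample titles and runs against the free-text sample descriptions, which name the other population. As the sort used the Icam1 product, this value checks the labels and is not a result.

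Beyond Icam1, 5 of the 10 remaining probe sets were higher in ICAM1-positive cells, 0 were lower by limma (1 at an unadjusted p under 0.05, for Itgal) and 5 did not pass, with a median log2 difference of 1.59. Among all probe sets tested 34.9% were called, 16.9% as higher and 18% as lower, with a median of -0.06. The 5 belonged to Icam2, Vcam1 and Itgb2, and 3 of them were Vcam1 probe sets, which share a target. Counted as genes, 3 of 7 passed as higher, against 20.6% of all genes (41.4% called in either direction). The groups did not overlap for 7 of the 10 probe sets, against 50.1% of all probe sets tested. All 11 member probe sets passed the filter on low intensity.

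**Figure D1:**
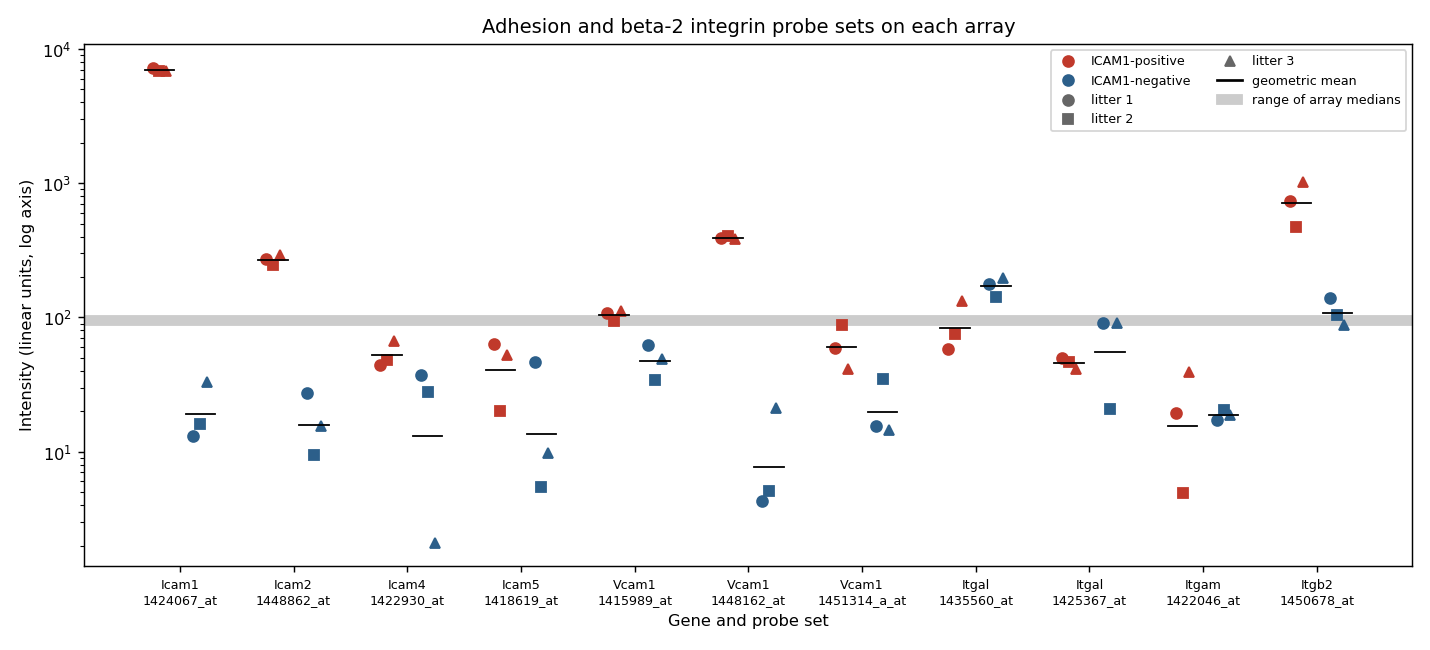
Intensity of each member probe set on each of the 6 arrays (log axis), with ICAM1-positive arrays in red to the left of ICAM1-negative arrays in blue, the litter as the symbol, a bar for the geometric mean of 3 arrays, and a grey band for the range of array medians (87.9 to 102.8). Icam1, Icam2, 1448162_at of Vcam1 and Itgb2 stand clear of the band in ICAM1-positive cells; both groups of Icam4, Icam5 and Itgam lie under it.

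Icam2 was the ICAM relative that rose with the antigen. It encodes an adhesion molecule of resting endothelium, platelets and leukocytes that binds CD11a/CD18. Icam2 was at 274.7, 245.1 and 292.9 in ICAM1-positive cells, against 27.3, 9.5 and 15.6 in ICAM1-negative cells. Every ICAM1-positive array was above every ICAM1-negative one, and the ICAM1-negative values were all under the array median. The log2 difference was 4.08 ± 0.40 (limma, adjusted p = 0.000767), or at least 2.80-fold when the dim side is set at the array median. Within litters the log2 difference was 3.33, 4.69 and 4.23.

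Because Icam2 is an endothelial gene, the markers of that cell type stand beside it. Of 10 measured endothelial markers 1 was higher, Ramp2 (194.8 ± 40.8 in ICAM1-positive and 50.8 in ICAM1-negative cells, n = 3 each; at least 1.99-fold), and 0 were lower, with a list median of 0.53. Their summed intensity ran from 687.5 to 823.5 on ICAM1-positive arrays, against 566.6 to 645.2 on ICAM1-negative arrays, and 7 of the 10 were under the array median on all 6 arrays. Leukocyte markers moved as well: 7 of 10 were higher and 1 lower, Ptpn6, which was called in 0 of the 9 fits without 1 litter or array. They had summed intensity from 11820 to 15311 on ICAM1-positive arrays and from 3057 to 3353 on ICAM1-negative arrays. Horizontal basal cell markers, 9 of 9 higher, had sums from 99194 to 100866 on ICAM1-positive arrays and from 732.5 to 1150 on ICAM1-negative arrays. The part of any of these cell types in the Icam2 difference was not tested. In sorted pools, more cells of a type and more RNA per cell cannot be told apart, here and for every gene that follows.

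The neighbours of Icam1 on the chromosome did not follow it detectably. In RefSeq (GRCm38.p6) Icam1, Icam4 and Icam5 are consecutive coding genes on chromosome 9. Icam4 encodes a red cell adhesion molecule, known in humans as the Landsteiner-Wiener blood group antigen. Icam4 was at 43.9, 48 and 67.1 in ICAM1-positive cells, against 37.5, 27.8 and 2.1 in ICAM1-negative cells. All 6 values were under the array median, and the distance between the groups rested largely on the value of 2.1 in litter 3. The difference of 2.0 ± 1.10 did not pass (adjusted p = 0.22; 95% interval -0.71 to 4.72), and within litters it was 0.23, 0.79 and 5.0. Of 7 measured red cell markers 4 were lower and 0 higher in ICAM1-positive cells (median -1.0). Without litter 1 or litter 3 only 1 was lower.

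Icam5, telencephalin, is an adhesion molecule of forebrain neuron dendrites. Icam5 was at 63.5, 20.1 and 52.3 in ICAM1-positive cells, against 46.4, 5.5 and 9.8 in ICAM1-negative cells. The groups overlapped, and all 6 values were under the array median. The log2 difference within litters was 0.45, 1.87 and 2.42. The difference of 1.58 ± 0.88 did not pass (adjusted p = 0.223; 95% interval -0.57 to 3.73). It was called only when the ICAM1-negative array of litter 1 was left out (2.47, limma adjusted p = 0.0384). The values left in that fit were still all under the array median. Since no detection call is recorded, neither gene's level is known beyond lying in the lower part of the array.

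The stretches just upstream of the 3 neighbouring genes are shown because only the first belongs to a gene with a high signal here. Sequences are from RefSeq (GRCm38.p6, plus strand), the 250 bases before each annotated start, and 4 of the 8 members had an entry (Itgam is the other one). Capitals mark matches on either strand to GGANNNTCC, a core that many NF-kB sites share, or to GGGCGG, the GC box; no capitals of the 2 motifs overlap.
Icam1, chr9:21015690-21015939: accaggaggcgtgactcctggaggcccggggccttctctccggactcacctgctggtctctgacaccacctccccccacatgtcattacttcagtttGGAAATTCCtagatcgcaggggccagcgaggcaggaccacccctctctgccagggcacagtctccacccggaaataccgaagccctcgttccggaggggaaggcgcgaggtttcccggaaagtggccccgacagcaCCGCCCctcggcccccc
Icam4, chr9:21029182-21029431: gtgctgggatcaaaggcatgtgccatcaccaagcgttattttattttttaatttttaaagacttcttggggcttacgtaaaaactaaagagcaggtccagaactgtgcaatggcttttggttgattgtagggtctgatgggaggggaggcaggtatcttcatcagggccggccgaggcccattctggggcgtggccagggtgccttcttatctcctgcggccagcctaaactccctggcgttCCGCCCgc
Icam5, chr9:21031788-21032037: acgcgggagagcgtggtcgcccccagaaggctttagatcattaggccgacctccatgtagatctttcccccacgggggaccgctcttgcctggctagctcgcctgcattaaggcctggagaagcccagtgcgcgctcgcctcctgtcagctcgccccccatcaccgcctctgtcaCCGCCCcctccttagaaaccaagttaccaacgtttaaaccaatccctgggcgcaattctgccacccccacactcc
The Icam1 window held 1 match to GGANNNTCC, which reads GGAAATTCC and spans 153 to 145 bases before the start. The Icam4 and Icam5 windows held 0. Of 32851 RefSeq promoter windows of this length 7.3% held that motif. Each of the 3 windows held 1 match to GGGCGG, a motif in 32.7% of windows. A match describes these letters and shows no binding.

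Vcam1 rose by all 3 of its probe sets, and its ICAM1-negative values were under the array median by each of them, so the sizes of the 3 differences cannot be compared. By probe set 1448162_at it was at 392.4, 402.2 and 381.9 in ICAM1-positive cells, against 4.3, 5.1 and 21.2 in ICAM1-negative cells. The 3 ICAM1-positive arrays lay close together and far above the others, and all ICAM1-negative values were under the array median. The log2 difference was 5.66 ± 0.62 (limma, adjusted p = 0.00116), or at least 4.06-fold with the dim side set at the array median.

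The other Vcam1 probe sets were dimmer in ICAM1-positive cells. Probe set 1415989_at was at 108.1, 94.3 and 111 in ICAM1-positive cells, against 62.4, 34.2 and 49.3 in ICAM1-negative cells. Its ICAM1-positive values were just above the array medians, and the difference was 1.14 ± 0.26 (adjusted p = 0.019). Probe set 1451314_a_at was at 58.8, 87.3 and 41.6 in ICAM1-positive cells, against 15.5, 34.5 and 14.6 in ICAM1-negative cells. All 6 of its values were under the array median, with a difference of 1.59 ± 0.44 (adjusted p = 0.0362). The files do not say which Vcam1 transcripts each probe set reads.

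The calls of the 2 dimmer probe sets were fragile. Probe set 1415989_at lost its call without litter 1 (adjusted p = 0.0626) or litter 3 (0.136), and without the ICAM1-positive array of litter 1 (0.0606) or 3 (0.0647) or the ICAM1-negative array of litter 3 (0.0509). Probe set 1451314_a_at lost its call without litter 1 (0.204) or 3 (0.111) and without ICAM1-positive array 1 (0.0882) or 2 (0.0947) or ICAM1-negative array 1 (0.108) or 3 (0.104). Neither passed when intensities under the array median were set to it (0.67 and 0.996). Probe set 1448162_at kept its call in each of these cases, with adjusted p up to 0.0286. Vcam1 is also a stromal gene. Of 10 fibroblast and pericyte markers 1 was higher (2 with litter as a paired block) and 0 were lower, with a median of -0.35. In fits without 1 litter or array 0 to 2 were lower. At an unadjusted p under 0.05 the counts were 3 higher and 1 lower. These counts use the brightest probe set of each gene. Another was lower for Col1a1 (1423669_at, -3.27 ± 0.86, limma adjusted p = 0.0307) and higher for Cspg4 (1423341_at, 2.13 ± 0.42, adjusted p = 0.0108).

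**Figure D2:**
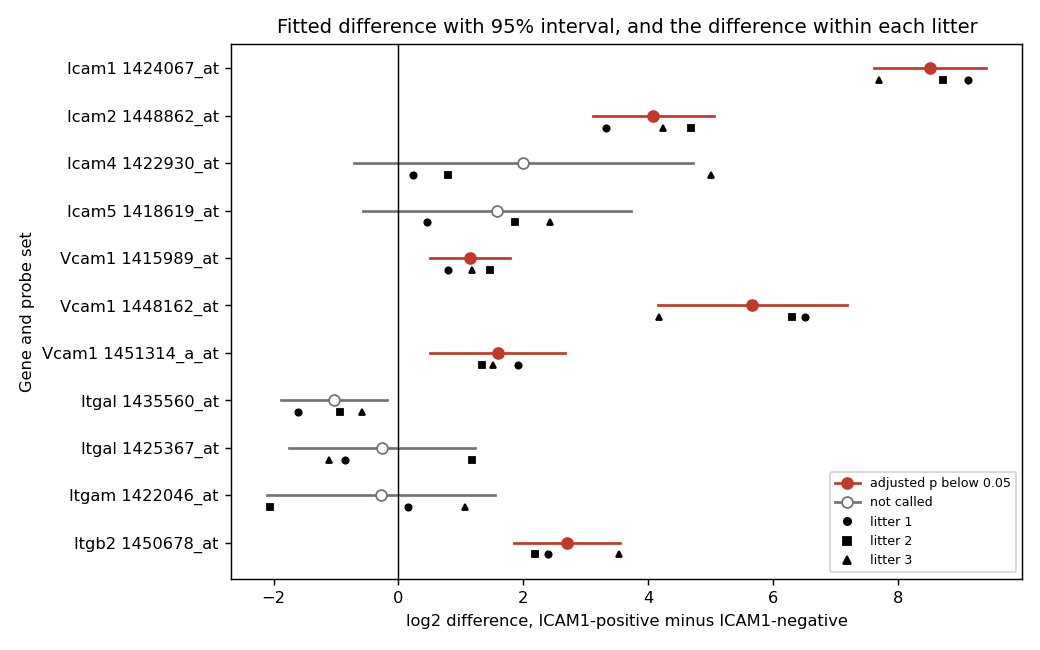
Fitted log2 difference (ICAM1-positive minus ICAM1-negative) of each member probe set with its 95% interval, filled red where the adjusted p was below 0.05 and open grey where it was not; small black symbols under each line are the differences within litters 1, 2 and 3. Icam2, the 3 Vcam1 probe sets and Itgb2 lie to the right of 0 in every litter, and so do Icam4 and Icam5, which did not pass. The litters of Itgam and of 1425367_at of Itgal fall on both sides.

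Among the member integrin chains, the shared beta chain of Itgb2 rose, and neither Itgal nor Itgam, which make alpha chains, passed as higher. Itgb2 was at 737, 468.1 and 1023.9 in ICAM1-positive cells, against 140.4, 103.6 and 88.3 in ICAM1-negative cells. The groups did not overlap, and the lowest ICAM1-positive array was litter 2. The log2 difference was 2.70 ± 0.35, a 6.5-fold ratio (limma, adjusted p = 0.00214), and it was 2.39, 2.18 and 3.54 within litters. It kept its call without any 1 array or litter, with adjusted p up to 0.0283.

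Itgal makes CD11a, the alpha chain of LFA-1, found on lymphocytes and many other leukocytes. By its brighter probe set 1435560_at, Itgal was at 57.8, 75.2 and 132.3 in ICAM1-positive cells, against 176, 143.2 and 197.1 in ICAM1-negative cells. Every ICAM1-positive array was below every ICAM1-negative one. The difference of -1.04 ± 0.34 missed the threshold (adjusted p = 0.0635; 95% interval -1.88 to -0.19), and it passed under several other settings: a stricter filter (0.0339), a pseudocount of 16 (0.0404), intensities under the array median set to it (0.0218), an intensity trend (0.038), or without the ICAM1-positive array of litter 3 (0.0183). Probe set 1425367_at was at 49.9, 46.9 and 41.5 in ICAM1-positive cells, against 90.4, 20.7 and 90.5 in ICAM1-negative cells. It was under the array median on all 6 arrays, overlapped between groups and gave -0.27 ± 0.60 (adjusted p = 0.774), but it passed as lower without litter 2 (-0.99, adjusted p = 0.0408) or without its ICAM1-negative array (-0.98, 0.0194).

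Itgam makes CD11b, the alpha chain of Mac-1 on monocytes, many macrophages and neutrophils. Itgam was at 19.3, 4.9 and 39.3 in ICAM1-positive cells, against 17.3, 20.5 and 18.9 in ICAM1-negative cells. All 6 values were under the array median, and the ICAM1-positive arrays lay on both sides of the ICAM1-negative ones. The difference was -0.28 ± 0.74 (adjusted p = 0.806), and its 95% interval of -2.10 to 1.54 leaves room for a sizeable change either way.

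Itgax, which follows Itgam on chromosome 7 and makes CD11c of dendritic cells and some macrophages, is no member but supplies another alpha chain for CD18. Itgax was at 739.2, 715.6 and 1049.5 in ICAM1-positive cells, against 90.8, 42.5 and 79.8 in ICAM1-negative cells. The groups did not overlap, and the difference was 3.61 ± 0.35 (limma, adjusted p = 0.000751), at least 8.52-fold. Among these beta-2 integrin chains a called rise was thus measured for the beta chain and the CD11c chain, and for neither CD11a nor CD11b. The difference between the chains was not tested.

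Most macrophage and general leukocyte markers were higher, as Itgb2 was. Ptprc, which makes the CD45 antigen of leukocytes, was at 1588.8, 1514.9 and 1999.5 in ICAM1-positive cells, against 479, 387.6 and 195 in ICAM1-negative cells (log2 difference 2.35, adjusted p = 0.0045). Of 15 macrophage markers 13 were higher and 0 lower (median 3.60), with summed intensity from 20393 to 25613 on ICAM1-positive arrays and from 1268 to 1633 on ICAM1-negative arrays. Of 6 measured dendritic and Langerhans cell markers 3 were higher, Flt3, Cd209a and Ccr7, and 1, Zbtb46, was lower. Their sums ran from 690.4 to 1064 on ICAM1-positive arrays, against 563.6 to 866.9 on ICAM1-negative arrays. Zbtb46 made up much of the ICAM1-negative sums, at 710.5, 458.2 and 734.3, against 107.2, 154.2 and 143.7 on ICAM1-positive arrays. Flt3 lost its call when intensities under the array median were set to it (limma adjusted p = 0.735). Cd209a and Ccr7 kept theirs (0.0157 and 0.000169).

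No lymphocyte or neutrophil marker passed as higher. Of 5 measured lymphocyte and NK markers 0 were higher and 1, Ms4a1, was lower (called in 3 of the 9 fits without 1 litter or array), with sums from 150.1 to 214.4 on ICAM1-positive arrays and from 243.3 to 415.4 on ICAM1-negative arrays. The T cell gene Cd3e stood under the array median on every array. Of 9 neutrophil markers 0 were higher and 2, Ngp and Cxcr2, were lower (5 lower with litter as a paired block, 1 to 3 in fits without 1 litter or array), with sums from 2412 to 4256 on ICAM1-positive arrays and from 5645 to 11120 on ICAM1-negative arrays. For these marker lists and those of endothelium and red cells, a limma count of 0 was also 0 at an unadjusted p under 0.05. The part of any of these cell types in the Itgb2, Itgal or Itgax values was not tested.

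**Figure D3:**
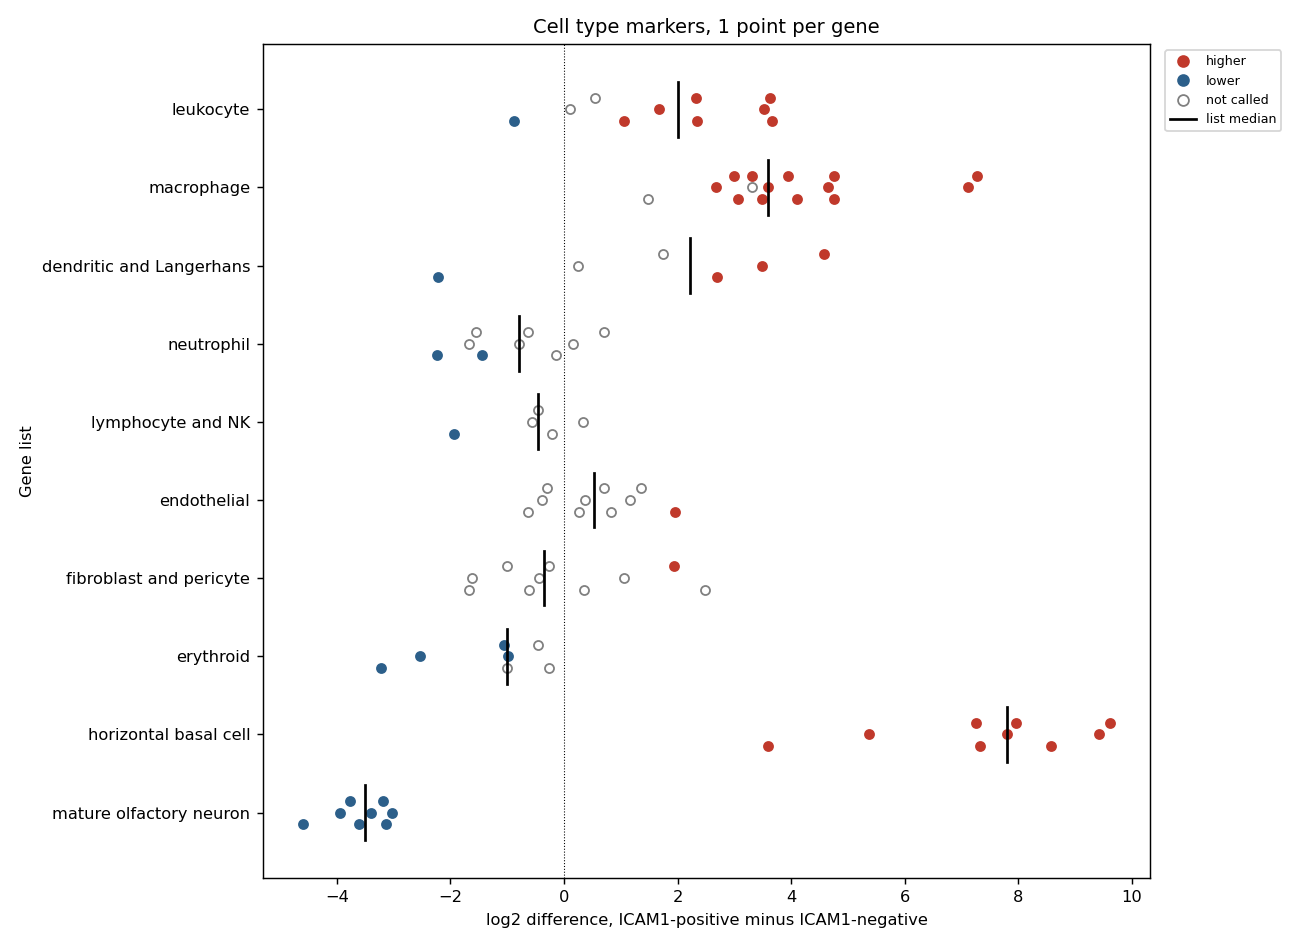
Log2 difference (ICAM1-positive minus ICAM1-negative) of each measured marker gene by cell type list, red where higher, blue where lower, open where not called, with a bar at the list median. Horizontal basal cell and macrophage markers lie to the right (medians 7.80 and 3.60), endothelial markers straddle 0, and mature olfactory neuron markers lie to the left (median -3.50).

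Genes whose pattern over the 6 arrays was most like a called member were found by the root mean square difference of gene-centred log2 intensity, over 16391 genes. For Itgb2 they were Csf2rb, the shared beta chain of the receptors for GM-CSF, interleukin 3 and interleukin 5 (0.14), Cyba, a subunit of the NADPH oxidase (0.19), and Tmc4, a transmembrane channel-like gene (0.20). For Icam2 they were the glutamate transporter gene Slc1a1 (0.23), the collagen-modifying P3h2 (0.25) and Amotl1, an angiomotin relative of tight junctions (0.31). For Vcam1, by probe set 1415989_at, which has the highest mean log2 intensity of its 3, they were Rapgefl1 (0.07), Ccnb1ip1 (0.07) and Tacc1 (0.10). The ICAM1-negative values of Icam2 and of 1415989_at were all under the array median, so their matches rest partly on dim values. No such search was made for 1448162_at.

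Of 63 measured genes on 6 lists of the wider adhesion system, 34 passed as higher, 4 as lower and 25 in neither direction, with a median log2 difference of 0.95. Of all genes 20.6% were higher and 20.8% lower, with a median of -0.06. Without litter 1 the lists gave 21 higher and without litter 3 they gave 19.

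The other integrin chains of leukocytes were mostly higher: 5 of 6 rose by limma and 0 fell, also at an unadjusted p under 0.05 (median 2.68), against 3 higher without litter 1 or litter 3. Besides Itgax these were Itgae, the CD103 chain (700.1 ± 141 in ICAM1-positive and 65.2 in ICAM1-negative cells, n = 3 each; log2 difference 3.45 ± 0.30, limma adjusted p = 0.000533; at least 7.15-fold), and its partner Itgb7 (3.16 ± 0.60, adjusted p = 0.00941, at least 2.98-fold; adjusted p = 0.0611 without litter 1). Both chains of the main VCAM1 receptor were also called as higher, each by its brightest probe set. Itgb1, which basal cells also use to hold the basement membrane, was at 2481.2, 1356.2 and 2132.1 in ICAM1-positive cells, against 533.8, 296.5 and 464.1 in ICAM1-negative cells (2.20 ± 0.34, adjusted p = 0.00404; 0.0532 without litter 3). Other Itgb1 probe sets were called as higher (1426918_at, 2.32, and 1427771_x_at, 1.97) or not called (1426919_at, 2.21, and 1426920_x_at, 0.98). Itga4 was at 273.9, 153.9 and 210.9 in ICAM1-positive cells, against 124, 73.4 and 45.9 in ICAM1-negative cells. Its difference of 1.47 ± 0.42 passed narrowly (limma adjusted p = 0.0401). That call was lost in 8 of the 9 fits without 1 litter or array, with adjusted p up to 0.187. The other Itga4 probe sets, 1421194_at (2.63, limma adjusted p = 0.0522) and 1456498_at (1.72, 0.166), were not called. Itga9 did not pass (-0.05, adjusted p = 0.924).

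The list of genes at the tails of ICAM and VCAM proteins held linkers to actin and the signalling genes Rhog and Arhgef26. All 9 measured genes were higher (median 1.25) by their brightest probe set. In fits without 1 litter or array, 4 to 8 were called. The other probe sets of Actn1 (-0.60 and -0.83), the other one of Msn (0.99) and all 4 others of Cttn (0.50 to 1.34) were not called. Those of Ezr and Rdx were called as higher. Arhgef26, an exchange factor that binds the ICAM1 tail and activates RhoG, was at 5258.6, 5687.3 and 4951.3 in ICAM1-positive cells, against 276.4, 338.7 and 379.4 in ICAM1-negative cells (4.01 ± 0.19, limma adjusted p = 0.000156). The actin cross-linker Flna rose by 3.18 ± 0.23 and the membrane-actin linker Ezr by 2.31 ± 0.21. Rdx, a relative of Ezr, rose by 1.26 ± 0.21 (adjusted p = 0.00569; 0.0656 without litter 3). Epithelial cells use the same genes, so the list is not one of leukocyte adhesion alone.

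Of 15 genes that control the switching of integrins inside leukocytes, 4 passed as higher, 2 as lower and 9 in neither direction (median 0.17; 2 higher without litter 3). The lower ones were Cyth1 (-0.65, adjusted p = 0.0404), which was called in 0 of the 9 fits without 1 litter or array, and Tln1. The list also holds Sharpin (0.17) and Itgb1bp1 (-0.05), known to keep integrins inactive, and neither passed. Fyb and Fgr did not pass by their brightest probe sets (0.82 and 0.57). Another was higher for Fyb (1452117_a_at, 2.29 ± 0.25, limma adjusted p = 0.00111) and for Fgr (1442804_at, 1.19 ± 0.28, adjusted p = 0.0219). In turn, Fermt3, Syk and Cyth1, called by their brightest probe sets, each had another that was not called. Rassf5, which carries the Rap1 signal to LFA-1, rose too (1503 ± 137 in ICAM1-positive and 79.1 in ICAM1-negative cells, n = 3 each; 4.26 ± 0.21, limma adjusted p = 0.000156; at least 15.5-fold). Fermt3, the kindlin of blood cells that binds beta integrin tails, rose by 2.74 ± 0.32 (adjusted p = 0.00146; at least 4.20-fold). Syk, a kinase downstream of these integrins, rose by 1.23 ± 0.23. Its difference was 1.11 in the fit that left out litter 2 and 1.12 in the one that left out litter 3, and neither was called (adjusted p = 0.0693 and 0.0779). Tln1, which makes talin, has no settled direction, since its brightest probe set was lower (-2.62 ± 0.19) and 1448402_at was higher (2.60 ± 0.25), both past the threshold.

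**Figure D4:**
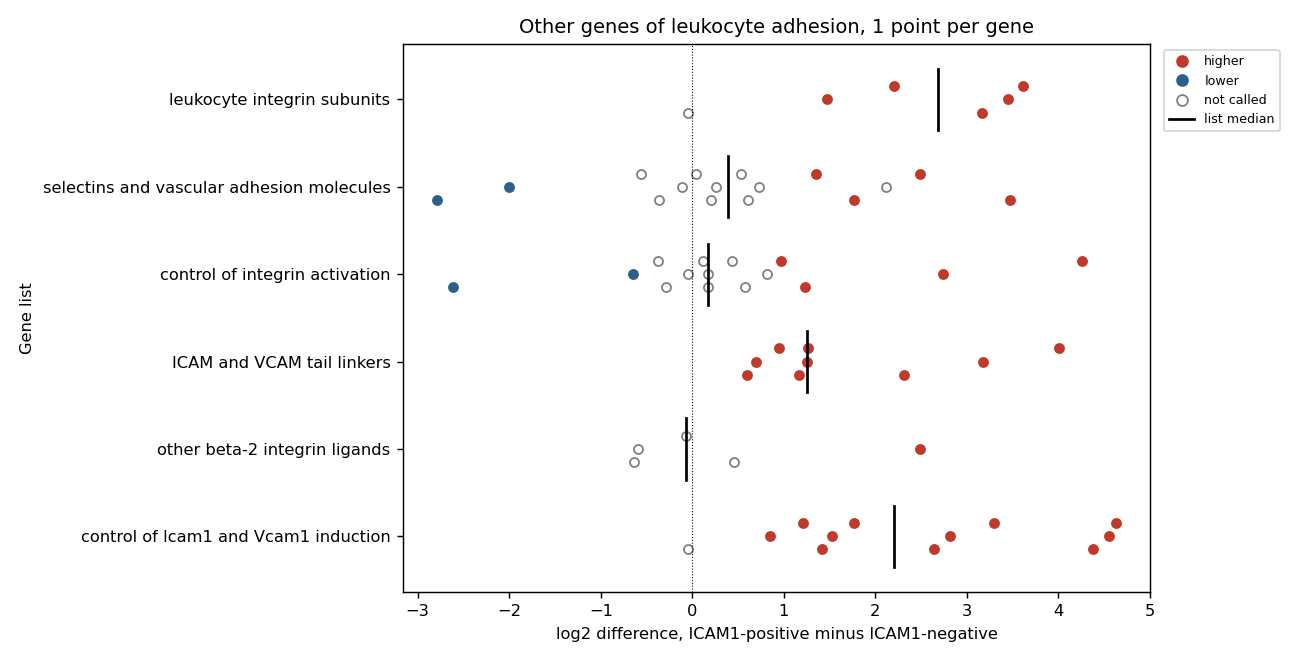
Log2 difference (ICAM1-positive minus ICAM1-negative) of each measured gene on 6 lists of the adhesion system, 1 probe set per gene, red where higher, blue where lower, open where not called, with a bar at the list median. The integrin, tail linker and induction lists lie mostly to the right of 0 (medians 2.68, 1.25 and 2.20), and the selectin and integrin activation lists are centred near 0 (0.39 and 0.17).

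Selectins and vascular adhesion molecules were mixed, with 4 of 16 higher, 2 lower and 10 not called (median 0.39; 6 higher with litter as a paired block, 2 without litter 3). Sirpa, the myeloid receptor for CD47, was at 1558, 1521.9 and 1654.1 in ICAM1-positive cells, against 107.6, 167.5 and 159 in ICAM1-negative cells (3.47 ± 0.22, limma adjusted p = 0.000251). Selplg, the leukocyte ligand of selectins, rose by 2.49 ± 0.40 (adjusted p = 0.00512; 0.0651 without litter 3). Jam3 and Podxl, a junctional adhesion molecule and a sialomucin of the cell surface, fell by 2.79 ± 0.22 and 2.0 ± 0.22. The endothelial selectin gene Sele was under the array median on all 6 arrays and did not pass without the block (adjusted p = 0.0796), though it did with litter as a paired block (0.0359). Of 5 measured further ligands of beta-2 integrins 1 rose, the fibrinogen chain Fgg by 2.49 ± 0.36, and that call was lost when intensities under the array median were set to it (0.996).

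On the list of cytokines, receptors and factors that govern the induction of Icam1 and Vcam1, 11 of 12 were higher by limma with 0 lower, also at an unadjusted p under 0.05 (median 2.20; 7 to 11 without 1 litter or array). With intensities under the array median set to it, 10 of the 12 were higher (median 1.32). Tnf, itself on the list, lost its call there (0.17, limma adjusted p = 0.689). Il1r1, the interleukin 1 receptor gene, was at 623.6, 461.2 and 466.2 in ICAM1-positive cells, against 12, 30.9 and 23.9 in ICAM1-negative cells (4.63 ± 0.38, limma adjusted p = 0.000479). Those ICAM1-negative values were all under the array median, so the difference was at least 5.30-fold. The cytokine gene Il1b was at 5695.3, 5105.4 and 9414.1 in ICAM1-positive cells, against 323.6, 407.5 and 231.1 in ICAM1-negative cells (4.38 ± 0.33). Tnfrsf1a, the main receptor gene for tumour necrosis factor, rose by 3.30 ± 0.22. Irf1, an interferon-induced transcription factor gene, rose by 4.55 ± 0.20. Nfkbia, which makes an inhibitor of NF-kB and so restrains this induction, rose by 1.42 ± 0.16 (adjusted p = 0.00127). Ifngr2 did not pass by its brightest probe set (-0.05), while another, 1423557_at, was higher (2.21 ± 0.56, adjusted p = 0.0272). Macrophage markers, which rose in the same arrays, stand beside these values, and their part was not tested.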

How the data were processed

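Affymetrix arrays from 6 sorted samples, 3 ICAM1-positive and 3 ICAM1-negative, were used. The authors deposited linear intensities. GCRMA is named per the submitters' processing notes, but its output would be on a log2 scale, whereas the deposited values have a 2% trimmed mean of 500 on every array, the form of MAS5-type scaled signals. Neither a program for such signals nor a detection call is recorded in the labels, and array number limits the precision. Groups came from the titles. Intensities were log2-transformed, 64 control probe sets were left out, and probe sets above log2 4 on at least 3 arrays entered the fit (38694) by limma 3.58.1 under R 4.3.3 (lmFit, eBayes, no block), Benjamini-Hochberg adjusted, after a test on simulated data. The brightest kept probe set stood for a gene (16399 genes).

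The replicate numbers mark litters, per the series text, so they pair the samples; deviations of arrays of the same litter correlated at 0.13, 0.20 and 0.08. Litter as a block was an alternative. An exact permutation test of 3 against 3 cannot go below 0.1. "At least" folds set the dim group at its array medians. Members and lists were chosen with earlier results of these data known. From each list the text names up to 4 called genes with the largest difference and groups that do not overlap, and others that a small count or a call turns on.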

Additional observations from a re-analysis of the deposited data

How the results depend on the processing

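The calls of Icam1, Icam2, Itgb2 and 1448162_at of Vcam1 held under every alternative run. Litter as a paired block changed no member's call: adjusted p was 0.00615 for Icam2, 0.00906 for 1448162_at, 0.0135 for Itgb2 and 0.055 for 1435560_at of Itgal. With intensities under the array median set to it, 1415989_at of Vcam1 dropped to 0.111, and Icam4, Icam5 and 1451314_a_at of Vcam1 came to -0.001 because all their values become the medians. 1435560_at of Itgal passed as lower with a filter at log2 6 (-1.037), a pseudocount of 16 (-0.902), intensities set to the median (-0.689) or an intensity trend (-1.037), so each of these gave 1 lower member probe set and 1 lower gene in place of 0; the cause was not tested. With the probe sets of a gene averaged, 2 genes of the adhesion lists were lower in place of 4.

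Without 1 litter or array, log2 differences ranged from 0.928 to 2.466 for Icam5, 0.910 to 1.344 for 1415989_at, 1.318 to 1.990 for 1451314_a_at, -1.372 to -0.752 for 1435560_at, -0.991 to 0.161 for 1425367_at of Itgal and -0.955 to 0.607 for Itgam. The sign turned for Itgam without litter 2 (0.607) or its ICAM1-positive array (0.547), and for 1425367_at without litter 1 (0.028), litter 3 (0.161) or their ICAM1-negative arrays (0.087 and 0.088). Called probe sets then numbered 7442 to 11681 (3764 to 5854 higher, 3678 to 6013 lower), against 13512 with all arrays. Lower member probe sets and genes then numbered 0 to 1, and called genes of the adhesion lists 22 to 35 (19 to 32 higher).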
